A study of Homo sapiens with 12 samples.

Results

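The 10 genes described here are Toll-like receptors and the proteins that work directly with them. They are the receptors TLR1, TLR2, TLR4, TLR5, TLR6, TLR7 and TLR8, the coreceptors CD14 and LY96 (the latter encodes MD-2), and the adaptor MYD88. They were chosen by name, and each was matched by its Ensembl identifier in a table of 61487 gene identifiers. All 10 were present, and 7 passed the filter on low counts that left 16104 genes for testing. TLR7, TLR8 and CD14 did not pass it and are given as counts. The filter asks for 0.841 counts per 1000000 in at least 3 libraries, which TLR4 and TLR5 reached in the 6 libraries with ATRA and in none without it, and LY96 in the 3 given ATRA alone and in 1 with DOX.

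RNA was sequenced from MOLM14 cells, an established human acute myeloid leukemia line of monocytic type. Every library came from cells with the genotype shRIP140, a short hairpin RNA, switched on by doxycycline, that targets RIP140; RIP140 is a coregulator of nuclear receptors and the product of NRIP1. The 4 groups, with 3 biological replicates each, were untreated cells, cells given all-trans retinoic acid (ATRA) at 1 µM for 48 h, cells given doxycycline (DOX) at 50 ng/mL, and cells given ATRA and DOX together (the combined group). No group was given DOX without carrying the hairpin, so effects of the drug and of the hairpin cannot be told apart, and whether the cells were 1 clone is not given in the sources used here.

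Toll-like receptors are transmembrane sensors of microbial products. TLR2 pairs with TLR1 or TLR6 to bind bacterial lipopeptides, TLR4 binds lipopolysaccharide through MD-2 with help from CD14, and TLR5 binds bacterial flagellin, all at the cell surface. TLR7 and TLR8 sense RNA inside endosomes. MYD88 couples all of the receptors named here to IRAK kinases, TRAF6 and NF-kB. Monocytes and macrophages are among the cells that carry most of these receptors, and retinoic acid drives maturation of some myeloid leukemia cells.

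Library totals ran from 2685984 to 19358619 counts, and the smallest library was DOX replicate 3. NRIP1, the target of the hairpin, stood at 59.7, 58.9 and 53.3 CPM (counts per 1000000, with TMM-scaled totals) in untreated cells and at 38.4, 41.1 and 51.9 CPM under ATRA. It stood at 19.2, 14.99 and 15.7 CPM under DOX and at 15.9, 20.9 and 19.95 CPM in the combined group, below the libraries without DOX throughout. Of 11 monocytic and myeloid markers, all had counts. CD68 had few, 18 over the untreated, 21 over the ATRA, 19 over the DOX and 36 over the combined group, and did not pass the filter. The summed level of the 11 was 1114 to 1187 CPM in untreated and 1240 to 1338 CPM in ATRA libraries. It was 1271 to 1365 CPM in DOX and 1169 to 1397 CPM in combined libraries. Among T and NK cell markers CD3E was at 0 in every library, while NCAM1 carried the list's summed level of 121 to 145 CPM in untreated and 55.8 to 62.5 CPM in ATRA libraries. The erythroid list summed to at most 0.193 CPM. Of the epithelial list, EPCAM was at 0 in every library. KRT8 of the same list averaged 18.3 CPM in untreated, 14.9 CPM in ATRA, 23.2 CPM in DOX and 18.4 CPM in combined libraries. Mitochondrial ribosomal RNA took 2.54% to 4.60% of counts in untreated, 2.09% to 2.74% in ATRA, 1.02% to 2.18% in DOX and 1.23% to 2.02% in combined libraries.

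ATRA was compared with no treatment to ask what the retinoid does with the hairpin off. TLR5 went from 3 counts over the untreated group to 152 over the ATRA group. TLR4 rose 3.95-fold, its coreceptor LY96 2.97-fold and MYD88 1.31-fold. TLR2 and TLR6 fell, and TLR1 was not called. At an adjusted p under 0.05 (edgeR quasi-likelihood test, Benjamini-Hochberg over all genes), 4 of the 7 tested members were higher and 2 lower; over all 16104 genes 28.9% were called, 15.7% as higher and 13.2% as lower. The libraries of both groups did not overlap for 6 of the 7, against 45.3% of all genes. TLR4, TLR5 and LY96 passed the filter on low counts through their ATRA-treated libraries, so the counts of called and of non-overlapping members are a description.

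The same retinoid comparison with the hairpin on, combined against DOX, shares no library with the one above. Both were fitted in 1 model with a shared filter and estimate of the spread, so they are not fully independent. TLR5 and TLR4 were again higher and TLR2 again lower, which makes 2 higher and 1 lower of the 7 tested. Over all genes 19.0% were called, 10.7% as higher and 8.24% as lower. The groups did not overlap for 3 of the 7, against 30.2% of all genes. These counts too are a description, since TLR4 and TLR5 passed the filter through libraries with ATRA. TLR1, TLR6, LY96 and MYD88 were not called. These are bulk libraries, in which fewer cells of a type and less RNA per cell cannot be told apart. Beside these changes, mean levels (n = 3) of the monocytic integrin gene ITGAM were 28.8 CPM in untreated and 75.1 CPM in ATRA libraries and those of the colony-stimulating factor receptor CSF1R 7.20 and 26.8 CPM, whereas the lysozyme gene LYZ stood at 205 and 124 CPM. The part of such shifts in the members' changes was not tested.

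**Figure D1:**
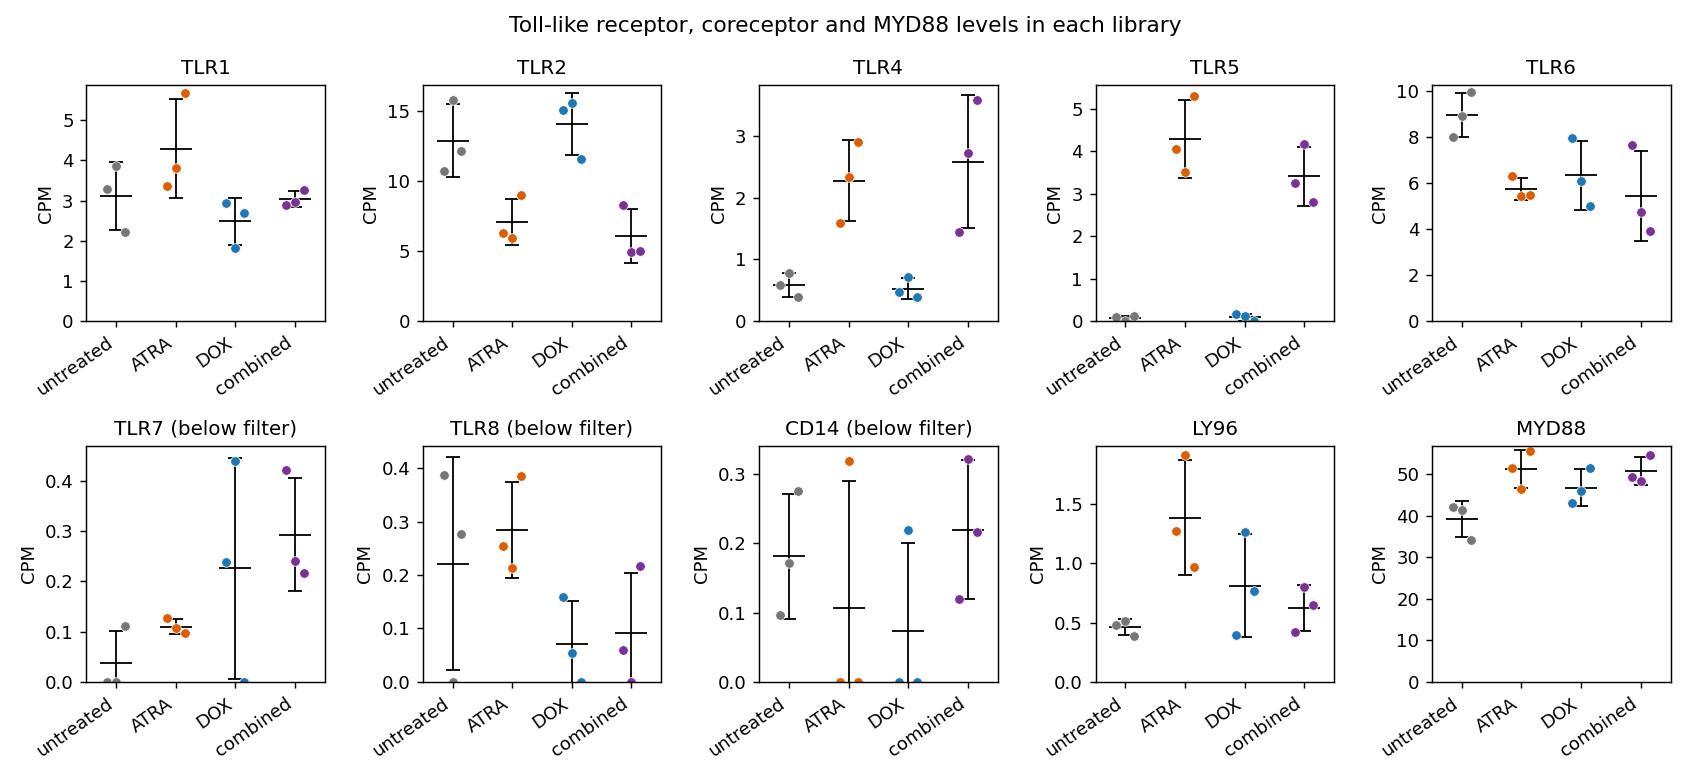
Level of each of the 10 members in each of the 12 libraries, in CPM (TMM-scaled, linear axes from 0, a scale of its own per gene). Points are libraries, the long horizontal line is the group mean and the error bar is the SD (n = 3, drawn from 0 where it would reach below); TLR5 is at most 0.159 CPM in the 6 libraries without ATRA and at least 2.82 CPM in the 6 with it.

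TLR5, the flagellin receptor, lies on the minus strand of chromosome 1 (chr1:223109406-223143282, GRCh38, GENCODE 29). Untreated libraries held 1, 0 and 2 counts of TLR5, and ATRA libraries held 64, 33 and 55. In DOX libraries there were 2, 2 and 0 counts, and in combined libraries 54, 52 and 26. Each library with ATRA was therefore far above each library without it. On the CPM scale, TLR5 averaged 0.0690 ± 0.0602 in untreated, 4.29 ± 0.92 in ATRA, 0.0897 ± 0.0815 in DOX and 3.41 ± 0.69 in combined libraries (SD, n = 3). The ratio of depth-scaled counts was 57.2 for ATRA against untreated, with an exact 95% counting interval of 19.2 to 281, and 28.8 for combined against DOX, with an interval of 10.97 to 107. The edgeR adjusted p was 9.46e-09 for the first and 3.25e-07 for the second. TLR5 is a gene that passed the filter through ATRA-treated libraries alone. With no filter, over 35850 genes, the edgeR adjusted p was 3.58e-27 and 7.72e-18. Fits with no filter, here and below, estimated the spread anew over more genes. Their p-values are therefore not comparable with those of the filtered fit. Both intervals are wide because the groups without ATRA held 3 and 4 counts in all, and they cover counting error only.

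The stretch upstream of TLR5 is shown because this member had the largest change. It runs from base -250 to base -35 of the RefSeq window (GRCh38.p14, chr1:223143283-223143498, minus strand), up to where an annotated exon begins. Capitals mark matches, on either strand and partly overlapping, to a loose NF-kB pattern, GGG and then CC after any 5 bases.
TLR5 upstream: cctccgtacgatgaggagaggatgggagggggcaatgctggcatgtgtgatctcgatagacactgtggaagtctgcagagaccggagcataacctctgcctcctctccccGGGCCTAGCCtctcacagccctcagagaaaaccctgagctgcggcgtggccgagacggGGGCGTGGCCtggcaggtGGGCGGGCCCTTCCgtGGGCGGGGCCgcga
That pattern occurs in 58.7% of 35116 RefSeq promoter windows of the same length, from 250 bases before to 50 bases after a gene's start. The retinoic acid receptor half-site AGGTCA, found in 13.8% of all windows, occurs in none of the windows of the 7 members that have one (TLR2, TLR4, TLR5, TLR6, TLR8, CD14 and MYD88). Its direct repeats spaced by 5 or 2 bases also had no match there, and occur in 2 and 1 of all windows. The absence says only that these letters are not in these windows.

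TLR4 is the lipopolysaccharide receptor (chr9:117704175-117724730, plus strand). It stood at 0.580, 0.771 and 0.387 CPM in untreated libraries and at 1.59, 2.34 and 2.89 CPM under ATRA. DOX libraries had 0.478, 0.714 and 0.384 CPM, and combined libraries 1.44, 2.73 and 3.58 CPM. The libraries with ATRA lay above those without it, with no overlap in either comparison. TLR4 rose by 1.98 ± 0.43 on the log2 scale with ATRA alone (SE, edgeR adjusted p = 0.00134) and by 2.07 ± 0.44 in combined against DOX (edgeR adjusted p = 0.00189). TLR4 too passed the filter through ATRA-treated libraries alone; with no filter its changes were 2.01 (edgeR adjusted p = 3.08e-05) and 2.06 (adjusted p = 5.13e-05). Group totals were 22 counts in untreated, 77 in ATRA, 20 in DOX and 91 in combined libraries. Of the exon bases of TLR4, 4.2% overlap those of AL160272.2 on the same strand, where reads of the 2 genes cannot be assigned from these counts.

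Matches to the PU.1-type motif GAGGAAGT were found at a pair of places in the TLR4 window, and they are shown because 2.59% of all windows hold this motif at all. PU.1 is a transcription factor of myeloid cells. Both lie within annotated first exons of TLR4, in their 5′ untranslated part, and read on the minus strand. Capitals mark the motif.
TLR4 site, chr9:117704220-117704247, plus strand: tcttcttctaACTTCCTCtcctgtgaca
TLR4 site, chr9:117704292-117704319, plus strand: tgccgctttcACTTCCTCtcacccttta
A match in the letters is a description and shows no binding. SPI1, the gene of PU.1, was at 173 to 178 CPM in untreated and 241 to 290 CPM in ATRA libraries. It was at 208 to 220 CPM in DOX and 233 to 261 CPM in combined libraries. For SPI1 the DOX libraries thus lay above the untreated ones, while for TLR4 these groups overlapped. Whether SPI1 acts on TLR4 in these cells was not tested.

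LY96 encodes MD-2, the small secreted protein that holds lipopolysaccharide in the TLR4 complex. Untreated libraries had 0.483, 0.514 and 0.387 CPM of LY96, ATRA libraries 1.27, 1.91 and 0.964 CPM. DOX libraries had 0.398, 1.26 and 0.768 CPM, and combined libraries 0.421, 0.803 and 0.651 CPM. LY96 was thus higher in each ATRA library than in each untreated one, while DOX and combined libraries overlapped. It rose by 1.57 ± 0.47 on the log2 scale with ATRA alone (edgeR adjusted p = 0.0153). LY96 passed the filter through the ATRA group, where all 3 libraries reached its level; with no filter the change was 1.60 (edgeR adjusted p = 0.0136). In combined against DOX the difference was -0.50 ± 0.49 (edgeR adjusted p = 0.540), a 95% interval from -1.52 to 0.52. The counts behind LY96 are few, 18, 48, 30 and 23 in untreated, ATRA, DOX and combined libraries. Without untreated replicate 3 the ATRA change was 1.43 (edgeR adjusted p = 0.0722), without ATRA replicate 2 it was 1.31 (adjusted p = 0.0830), and with the share of mitochondrial ribosomal RNA as a model term it was 1.24 (adjusted p = 0.0564), so the call was lost in each case.

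CD14, the coreceptor that passes lipopolysaccharide to TLR4 and a customary surface marker of monocytes (chr5:140631728-140633701, minus strand), was close to absent. Untreated libraries held 1, 2 and 5 counts, those with ATRA 0, 3 and 0, those with DOX 0, 4 and 0, and those with both 2, 4 and 2. The highest library stood at 0.321 CPM, and 3 counts over a group correspond to 0.0748 to 0.0899 CPM. Depth-scaled counts with ATRA were 0.424 times those of untreated cells, with a 95% counting interval of 0.0724 to 1.76, so a change was not detectable at this depth.

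TLR2 is the shared partner of the lipopeptide receptors (chr4:153684070-153705702, plus strand). Its level was 10.7, 15.8 and 12.1 CPM in untreated and 6.29, 5.95 and 8.96 CPM in ATRA libraries. In DOX libraries it was 15.04, 15.5 and 11.5 CPM, and in combined libraries 8.30, 4.90 and 4.99 CPM. Libraries with ATRA lay below those without it in both comparisons, again with no overlap. TLR2 fell by 0.87 on the log2 scale with ATRA alone (SE 0.21, edgeR adjusted p = 0.00288) and by 1.23 in combined against DOX (SE 0.21, edgeR adjusted p = 0.000201). With every library thinned to the smallest total, the ATRA change was -0.77 and no longer called (edgeR adjusted p = 0.0581).

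TLR6 pairs with TLR2 for diacylated lipopeptides (chr4:38823715-38856817, minus strand). Untreated libraries had 8.02, 8.91 and 9.94 CPM of TLR6 and ATRA libraries 6.29, 5.42 and 5.49 CPM. DOX libraries had 7.96, 6.09 and 4.99 CPM and combined libraries 7.64, 4.74 and 3.90 CPM. The untreated libraries were the highest of all 12, and DOX and combined libraries overlapped. TLR6 fell by 0.64 on the log2 scale with ATRA alone (SE 0.21, edgeR adjusted p = 0.0268). In combined against DOX the difference was -0.25 ± 0.22 (edgeR adjusted p = 0.490). The call for TLR6 was lost without untreated replicate 2 (-0.65, adjusted p = 0.0548), without untreated replicate 3 (-0.56, 0.107), without ATRA replicate 2 (-0.60, 0.0764) and without ATRA replicate 3 (-0.59, 0.0837), each by edgeR. It was also lost at equal depth (-0.58, adjusted p = 0.229) and with the mitochondrial ribosomal RNA term (-0.46, adjusted p = 0.0944).

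TLR1, the partner of TLR2 for triacylated lipopeptides, has an annotated span that includes the whole of TLR6 (chr4:38790677-38856817, minus strand). It stood at 3.28, 3.86 and 2.21 CPM in untreated and 3.37, 3.82 and 5.69 CPM in ATRA libraries. Levels in DOX libraries were 2.95, 1.81 and 2.69 CPM, and in combined libraries 2.89, 2.97 and 3.25 CPM. The groups overlapped in both retinoid comparisons. The difference was 0.47 ± 0.27 on the log2 scale with ATRA alone (edgeR adjusted p = 0.196) and 0.35 ± 0.30 in combined against DOX (edgeR adjusted p = 0.478). Its 95% interval for ATRA alone ran from -0.08 to 1.03 and includes 0.

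TLR1 and TLR6 are close copies, and the longest run that their coding sequences share is shown because reads inside it cannot be assigned to either gene by sequence. It holds 218 identical bases, at coding positions 1379 to 1596 of 2358 in TLR1 (chr4:38797236-38797453) and 1394 to 1611 of 2388 in TLR6 (chr4:38827863-38828080), both on the minus strand of GRCh38.
TLR1 and TLR6: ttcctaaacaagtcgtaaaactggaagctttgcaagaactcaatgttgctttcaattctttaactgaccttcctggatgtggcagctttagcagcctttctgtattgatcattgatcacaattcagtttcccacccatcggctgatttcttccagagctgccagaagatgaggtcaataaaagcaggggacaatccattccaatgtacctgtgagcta
Among all stretches of 100 bases in their annotated transcripts, 2.48% of those of TLR1 and 1.96% of those of TLR6 are present in the other gene. Another 57 exon bases of the annotation belong to both. For TLR4 3.44% of such stretches occur in AL160272.2, and for the other members none occurs in another gene. How the counting treated shared reads is not given in the sources used here.

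Within a library the ratio of TLR1 to TLR6 needs no scaling between libraries. Per 100 counts of TLR6 there were 41.0, 43.3 and 22.2 counts of TLR1 in untreated and 53.5, 70.6 and 104 in ATRA libraries. In DOX libraries there were 37.0, 29.7 and 53.8, and in combined libraries 37.8, 62.7 and 83.3. The ATRA libraries lay above the untreated ones, and combined and DOX libraries overlapped; the ratio itself was not tested.

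TLR7 and TLR8, neighbours on chromosome X that sense single-stranded RNA in endosomes, were near the limit of detection. TLR7 (chrX:12867083-12890380) held 0, 0 and 2 counts in untreated cells, 2, 1 and 1 with ATRA, 3, 8 and 0 with DOX, and 7, 3 and 2 with both. TLR8 (chrX:12906620-12923169) held 4, 0 and 5 counts in untreated cells, 4, 2 and 4 with ATRA, 2, 1 and 0 with DOX, and 1, 0 and 2 with both. Group totals thus ran 2, 4, 11 and 12 for TLR7 and 9, 10, 3 and 3 for TLR8. The groups with DOX had more TLR7 and fewer TLR8 counts in all. Single libraries with and without DOX overlapped for both genes, and 8 of the 11 TLR7 counts with DOX alone came from DOX replicate 2. An exact two-sided permutation test of the DOX effect on CPM, rearranged within the libraries with and without ATRA (400 arrangements), gave p = 0.025 for TLR7 and p = 0.055 for TLR8. It was chosen after the counts were seen, and over the 6 such tests on TLR7, TLR8 and CD14 the Benjamini-Hochberg adjusted exact p was 0.15 for TLR7 and 0.165 for TLR8.

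MYD88, the adaptor that the receptors share, had the highest level per length of the members (chr3:38138478-38143022, plus strand). It stood at 42.1, 41.2 and 34.2 CPM in untreated and 51.5, 46.4 and 55.5 CPM in ATRA libraries. DOX libraries had 42.9, 45.8 and 51.4 CPM and combined libraries 49.2, 48.2 and 54.6 CPM. The untreated libraries were the lowest of all 12, and DOX and combined libraries overlapped. MYD88 rose by 0.39 ± 0.10 on the log2 scale with ATRA alone, 1.31-fold (edgeR adjusted p = 0.0059), and differed by 0.14 ± 0.10 in combined against DOX (edgeR adjusted p = 0.403). Without untreated replicate 3 the ATRA change was 0.29 (edgeR adjusted p = 0.0543), and at equal depth it was 0.31 (adjusted p = 0.0916), so the call was lost in both cases.

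Near the RefSeq start of MYD88 the window holds a match to the core of the interferon-stimulated element (GAAA, any 2 bases and GAAA again), which 3.57% of all windows hold. It is shown because no other member with a window has one. The site lies in the 5′ untranslated part of the annotated first exon, and capitals mark the motif.
MYD88 site, chr3:38138590-38138619, plus strand: gcgcttctcgGAAAGCGAAAgccggcgggg

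**Figure D2:**
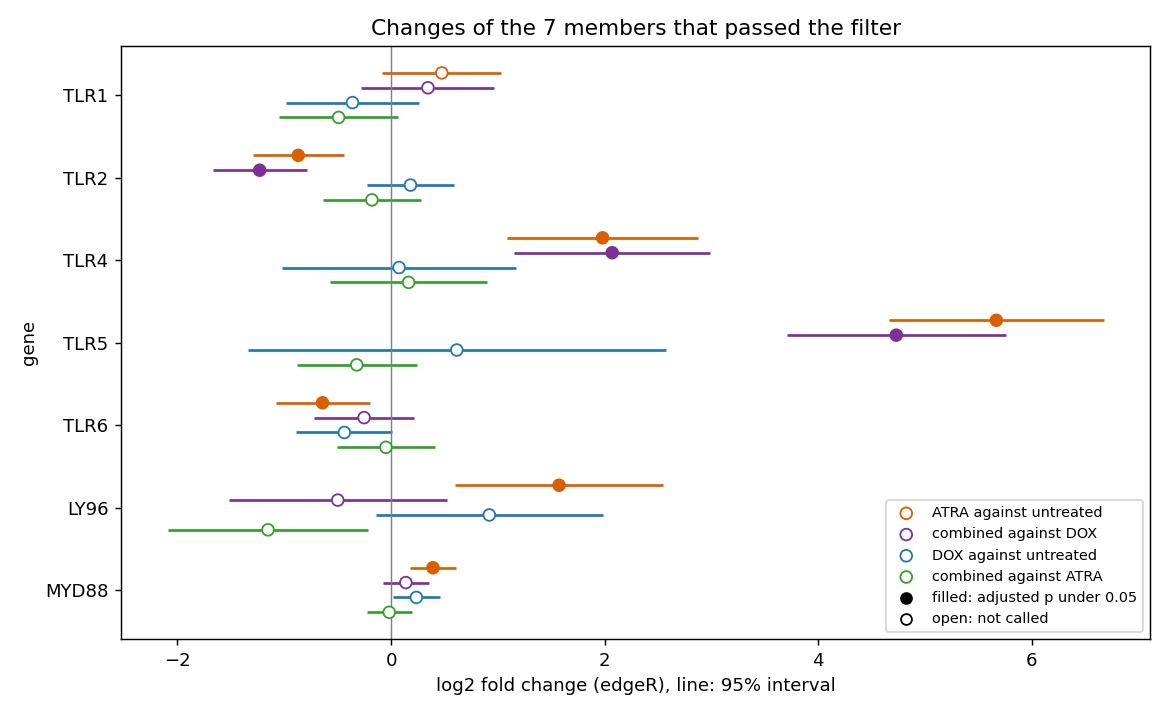
log2 fold changes of the 7 tested members in 4 comparisons, with 95% intervals derived from the edgeR F statistic as lines. Filled circles have an adjusted p under 0.05. TLR5, TLR4 and TLR2 are filled in both retinoid comparisons, and no member is filled in either comparison of DOX.

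DOX was compared with no treatment, and the combined group with ATRA, to ask what induction of the hairpin does without and with the retinoid. No member was called in either. Over all genes 15.2% were called in DOX against untreated, 8.08% as higher and 7.10% as lower, and 4.43% in combined against ATRA, 1.89% as higher and 2.54% as lower. At an unadjusted edgeR p under 0.05 there was 1 member in each comparison, MYD88 in the first and LY96 in the second, against 32.1% and 19.0% of all genes, and DESeq2 called 0 members in both. These comparisons share libraries with the retinoid ones above.

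In DOX against untreated, TLR6 was lower and MYD88 higher in each DOX library than in each untreated one, and the other 5 tested members overlapped; 30.8% of all genes did not overlap. TLR6 differed by -0.44 ± 0.22 on the log2 scale (edgeR adjusted p = 0.167) and MYD88 by 0.24 ± 0.11 (edgeR adjusted p = 0.128). The difference for LY96 was 0.92 ± 0.51 (edgeR adjusted p = 0.221), and 23 of its 30 DOX counts came from DOX replicate 2. For TLR2 the 95% interval ran from -0.23 to 0.59, and for TLR4 from -1.02 to 1.17. With the share of mitochondrial ribosomal RNA in the model, the differences of TLR4, TLR6, LY96 and MYD88 changed sign. Over all genes 77 were called with that term and 2446 without it.

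In combined against ATRA, LY96 was lower in each combined library than in each ATRA library, as was TLR1; 26.5% of all genes did not overlap. LY96 differed by -1.15 ± 0.45 on the log2 scale (95% interval from -2.09 to -0.21, edgeR adjusted p = 0.164) and TLR1 by -0.49 ± 0.27 (edgeR adjusted p = 0.336). LY96 passed the filter through the ATRA group, so its lower level in combined libraries is a description. With no filter its difference was -1.14 (edgeR adjusted p = 0.307). The intervals of the members that had changed with ATRA alone were -0.88 to 0.24 for TLR5, -0.57 to 0.90 for TLR4, -0.64 to 0.28 for TLR2 and -0.23 to 0.19 for MYD88.

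Whether the retinoid effect itself differed with the hairpin on was tested as an interaction, the combined against DOX change minus the ATRA against untreated change. No member was called, and 0.267% of all genes were, 43 in number, 0.0435% with a positive and 0.224% with a negative difference. LY96 had an unadjusted edgeR p under 0.05, the 1 member of 7 that did, against 10.8% of all genes, and DESeq2 called 0 members. Its interaction was -2.07 ± 0.68 on the log2 scale (edgeR adjusted p = 0.264), from 1.57 with ATRA alone to -0.50 in combined against DOX. LY96 passed the filter through the ATRA group, so this interaction is a description. Without DOX replicate 1 it was -2.49 with an edgeR adjusted p of 0.0366, and without DOX replicate 2, which held most of the LY96 counts of its group, it was -1.22 with an adjusted p of 0.805. The interaction was -0.94 ± 1.00 for TLR5, 0.09 ± 0.66 for TLR4, -0.36 ± 0.30 for TLR2, 0.39 ± 0.31 for TLR6 and -0.25 ± 0.15 for MYD88. Of these intervals the widest is that of TLR5, from -3.03 to 1.15 (-1.54 without untreated replicate 3 and -0.48 without untreated replicate 2), and the narrowest that of MYD88, from -0.56 to 0.05.

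Levels of different genes were compared per kilobase of merged exons. In untreated cells MYD88 led with 9.82 CPM per kb, followed by TLR2 at 2.47, TLR6 at 1.48, LY96 at 0.760 and TLR1 at 0.687. CD14, TLR8, TLR4, TLR5 and TLR7 were below 0.1 CPM per kb. The libraries of neighbours in this order overlapped for LY96 and TLR1, for CD14 and TLR8, for TLR8 and TLR4 and for TLR5 and TLR7. Under ATRA the order was MYD88 at 12.8, LY96 at 2.28, TLR2 at 1.35, TLR6 at 0.950, TLR1 at 0.947, TLR5 at 0.553 and TLR4 at 0.171 CPM per kb, with overlap between LY96 and TLR2 and between TLR6 and TLR1. DOX libraries had MYD88 at 11.7, TLR2 at 2.69, LY96 at 1.33, TLR6 at 1.05 and TLR1 at 0.547 CPM per kb, where LY96 and TLR6 overlapped. In combined libraries MYD88 was at 12.7, TLR2 at 1.16, LY96 at 1.03, TLR6 at 0.899, TLR1 at 0.670, TLR5 at 0.440 and TLR4 at 0.195 CPM per kb, and TLR2, LY96 and TLR6 each overlapped the next. The per-kilobase level of TLR4 rests on a merged length of 13.3 kb and that of LY96 on 0.607 kb, so a shorter TLR4 transcript in these cells would stand higher.

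The 7 receptors taken alone made a different mixture with ATRA. TLR2 supplied 51.6% ± 3.9 of their summed CPM per kb in untreated libraries and 33.1% ± 1.7 under ATRA (SD, n = 3). TLR5 supplied 0.201% ± 0.174 and 13.6% ± 0.8, and TLR4 0.912% ± 0.241 and 4.20% ± 0.88. With the hairpin on, TLR2 went from 61.2% ± 3.9 in DOX to 33.2% ± 4.8 in combined libraries, TLR5 from 0.240% ± 0.214 to 13.02% ± 3.53 and TLR4 from 0.898% ± 0.248 to 5.997% ± 3.136. None of these 3 receptors overlapped between the libraries with and without ATRA. The sum itself was 4.75 ± 0.59 CPM per kb in untreated, 4.06 ± 0.72 in ATRA, 4.40 ± 0.68 in DOX and 3.44 ± 0.59 in combined libraries, which overlapped between untreated and ATRA. Shares of a fixed total depend on one another, and no test was made on them.

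**Figure D3:**
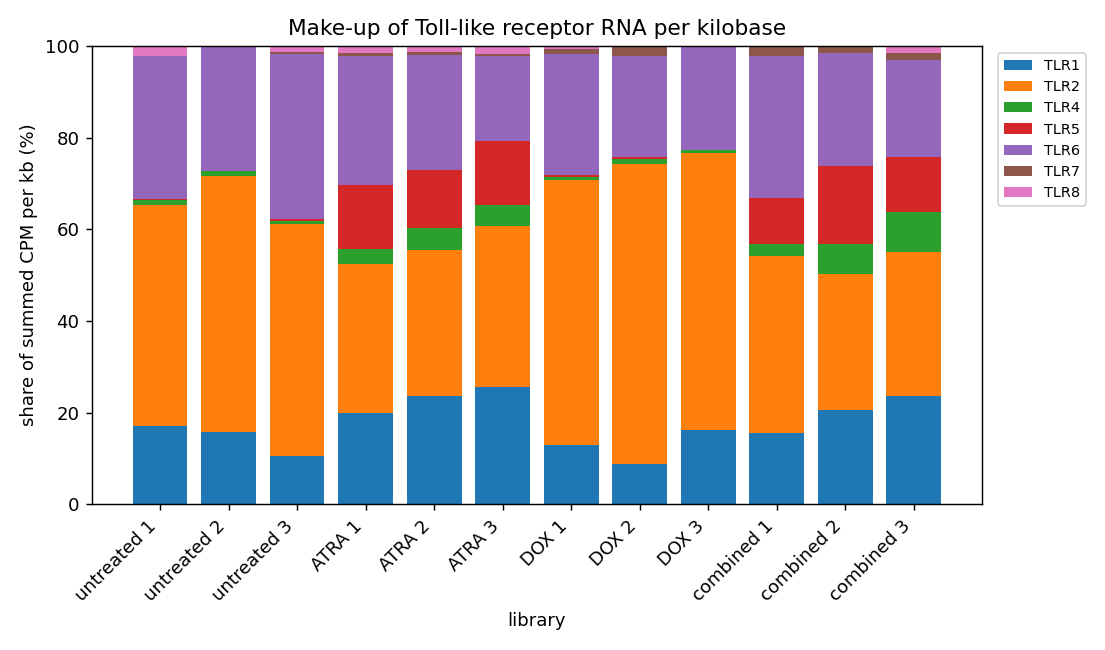
Share of each of the 7 receptors in the summed receptor level of a library, in percent of CPM per kb of exon, for the 12 libraries (stacked bars from 0 to 100). TLR5 takes 10.2% to 17.0% in the 6 libraries with ATRA and at most 0.411% in the 6 without it, and TLR2 takes 29.6% to 38.7% and 48.3% to 65.4%.

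The rest of the pathway was followed through 75 further genes in 7 lists, of which 65 were tested. In ATRA against untreated 25 of the 65 were higher and 3 lower, where 15.7% and 13.2% of all genes were, and the median change was 0.28 on the log2 scale against -0.01 over all genes. In combined against DOX 22 were higher and 1 lower, where 10.7% and 8.24% of all genes were, with a median of 0.19 against -0.01. The lists were chosen with earlier results known and are not independent evidence of a direction. LBP and CCL2 passed the filter on low counts through libraries with ATRA alone, so the counts of called list genes are a description.

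Ligand delivery, folding and trafficking genes were higher with ATRA for 5 of 10 and lower for none, beside the 15.7% and 13.2% of all genes that hold for each list below. CD180, a receptor-like relative of TLR4 found on B cells and myeloid cells, rose by 2.53 ± 0.20 on the log2 scale (edgeR adjusted p = 2.8e-09), from 3.86, 4.89 and 4.20 CPM to 22.2, 22.7 and 29.98 CPM. Its libraries did not overlap. LBP, the serum protein that carries lipopolysaccharide to CD14, went from 4 to 61 counts over the group, a ratio of 17.2 with a 95% counting interval of 6.39 to 65.2. It passed the filter through libraries with ATRA alone, so the count of 5 of 10 is a description. The scavenger receptor CD36, a partner of TLR2 and TLR6, rose by 0.97 ± 0.11 and CNPY3, a chaperone of Toll-like receptors, by 0.68 ± 0.08. Among the receptors outside the group, TLR9 had 0 counts in every library, which at 3 counts allows up to 0.0748 to 0.0899 CPM in a group. TLR10 held 1, 8, 0 and 6 counts and TLR3 differed by 0.72 ± 0.54 (edgeR adjusted p = 0.335).

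Of 4 tested adaptors other than MYD88, TICAM1 (TRIF, the adaptor of TLR3 and TLR4) rose by 0.56 ± 0.13 and PIK3AP1, which links the receptors to phosphoinositide kinase, by 0.32 ± 0.09, and none was lower. TIRAP, which brings MYD88 to TLR2 and TLR4, differed by 0.36 ± 0.20 (edgeR adjusted p = 0.199) and SARM1 by -0.35 ± 0.36 (adjusted p = 0.499). Among 20 proximal kinases and ubiquitin genes 4 were higher and 1 lower, a called share near the 28.9% of all genes. IKBKE rose by 0.67 ± 0.10, TBK1 by 0.51 ± 0.11 and RIPK1 by 0.43 ± 0.09; TBK1 and IKBKE are related kinases that act on interferon regulatory factors. TAB1, a partner of the kinase TAK1, fell by 0.28 (SE 0.08). Without untreated replicate 3 the change of PIK3AP1 was 0.21 (edgeR adjusted p = 0.104), and that of TAB1 was -0.27 without untreated replicate 2 (adjusted p = 0.0530) and -0.21 without ATRA replicate 3 (adjusted p = 0.117). TAB1 was also not called with no filter on low counts (-0.25, edgeR adjusted p = 0.159) or at equal depth (-0.095, adjusted p = 0.644).

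Inhibitors of the pathway were higher for 4 of 10 and lower for 2. SIGIRR, a receptor of the same superfamily that dampens signalling, rose by 0.97 ± 0.11, the phosphatase gene PTPN6 (SHP-1) by 0.93 ± 0.09 and the deubiquitinase gene CYLD by 0.70 ± 0.11. TNFAIP3, the gene of the ubiquitin-editing enzyme A20, fell by 0.73 (SE 0.15, edgeR adjusted p = 0.000651). At equal depth the change of CYLD was 0.31 and was not called (edgeR adjusted p = 0.117). Transcription factors were higher for 6 of 12 and lower for none, among them IRF8 by 0.85 ± 0.09, SPI1 by 0.59 ± 0.08, NFKB2 by 0.45 ± 0.12 and FOS by 1.74 ± 0.51. FOS was not called without untreated replicate 3 (1.65, edgeR adjusted p = 0.0626), nor NFKB2 at equal depth (0.41, adjusted p = 0.0712).

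Of 15 genes that the pathway is known to induce, 8 were tested and 4 of these were higher with ATRA, with none lower. The chemokine gene CCL2 had no counts in untreated cells and 159 under ATRA, at least 59.9-fold higher against a floor of 3 counts over the group. It passed the filter through libraries with ATRA alone, so the count of 4 is a description. The adhesion molecule gene ICAM1 rose by 1.11 ± 0.11, and the cytokine genes TNF by 0.67 ± 0.14 and IL1B by 1.36 ± 0.41. IL1B was not called without untreated replicate 1 (1.14, edgeR adjusted p = 0.0711), without ATRA replicate 1 (1.38, 0.0516) or without ATRA replicate 3 (1.26, 0.0652). IL6 had 0 counts in every library.

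**Figure D4:**
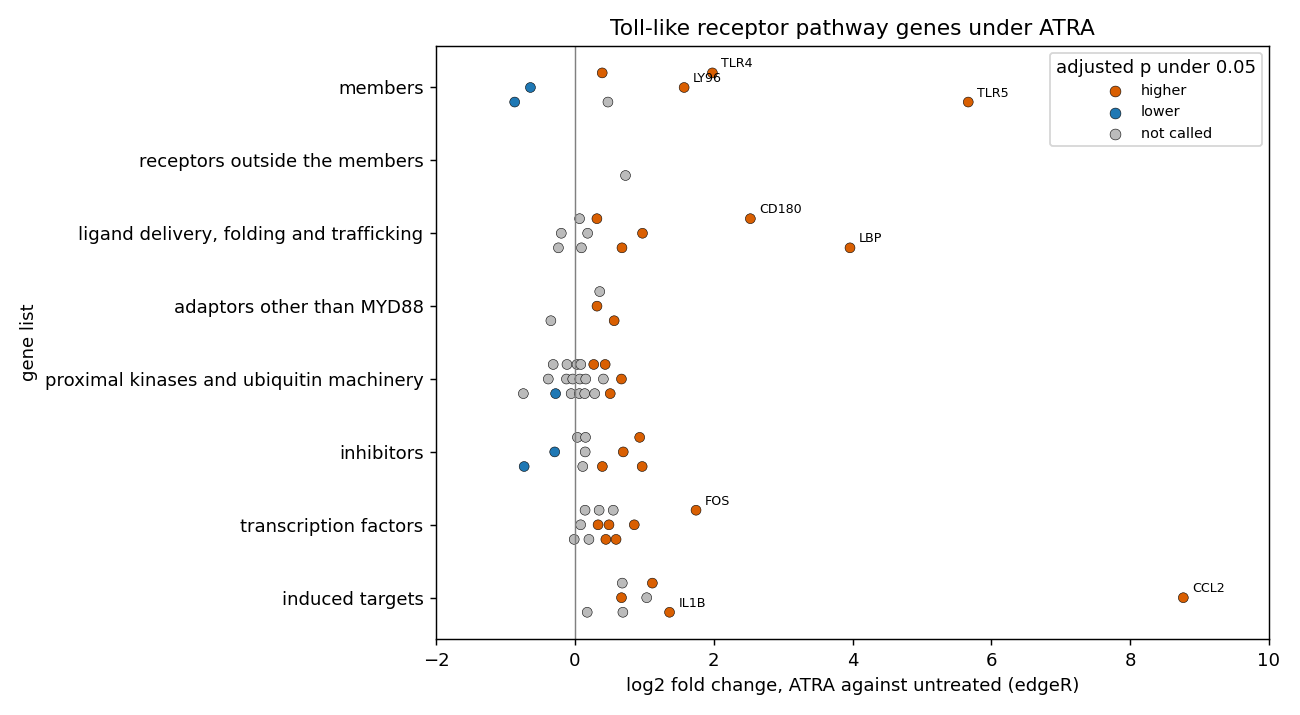
log2 fold change in ATRA against untreated (edgeR) of each tested member and of each tested gene of the 7 pathway lists, 1 point per gene, coloured by whether the adjusted p was under 0.05. In the lists 25 points are called higher and 3 lower; the position of CCL2, which had no counts in untreated cells, depends on the prior count of the fit.

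In combined against DOX, ICAM1 rose by 1.06 ± 0.11, SIGIRR by 0.91 ± 0.11 and CD180 by 1.68 ± 0.21, and LY86, which encodes the MD-1 partner of CD180, fell by 1.11 (SE 0.15, edgeR adjusted p = 1.12e-05). LY86 stood at 9.76, 11.3 and 12.8 CPM in untreated, 10.0, 8.29 and 10.5 CPM in ATRA, 19.4, 19.9 and 20.0 CPM in DOX and 10.8, 8.35 and 8.02 CPM in combined libraries. The DOX libraries were the highest of all 12. Its interaction was -0.87 ± 0.21 (edgeR adjusted p = 0.0882), past the threshold with DESeq2 (-0.87, adjusted p = 0.0491), with no filter on low counts (-0.88, edgeR adjusted p = 0.0264), without DOX replicate 1 (-0.87, 0.0298) and without combined replicate 1 (-1.02, 0.0208). No list gene was called for the interaction by the edgeR fit to all libraries, 10 of 65 had an unadjusted p under 0.05 against 10.8% of all genes, and the next by adjusted p were CNPY3 at -0.39 ± 0.12, SPI1 at -0.37 ± 0.12 and CD180 at -0.84 ± 0.30. CNPY3 was past the threshold without DOX replicate 1 (-0.42, edgeR adjusted p = 0.0491).

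In DOX against untreated 5 list genes were higher and 1 lower of 65, against 8.08% and 7.10% of all genes, so the called share was below the background of 15.2%. LY86 rose by 0.79 ± 0.15, TNF by 0.58 ± 0.14 and SPI1 by 0.28 ± 0.08, and TNFAIP3 fell by 0.64 (SE 0.15). Of 16 alternatives SPI1 kept its call in 5, TNFAIP3 in 12 and TNF in 13. SPI1 lost it without any 1 of the untreated replicates or without DOX replicate 2 or 3 (0.26 to 0.30, edgeR adjusted p from 0.0553 to 0.0933), and TNFAIP3 without DOX replicate 2 (-0.45, adjusted p = 0.109). In combined against ATRA 2 were higher and 4 lower, where 1.89% and 2.54% of all genes were. CD36 fell by 0.69 (SE 0.11, edgeR adjusted p = 0.00061), while TNF rose by 0.49 ± 0.13, JUN by 2.14 ± 0.48 and CNPY3 fell by 0.31 (SE 0.08). JUN libraries overlapped, at 2.22, 14.4 and 17.7 CPM in combined and 1.78, 3.51 and 2.51 CPM in ATRA libraries. CD36 kept its call in 15 of 15 alternatives. TNF kept it in 8 of 15, and lost it without any 1 of the ATRA replicates or without combined replicate 2 or 3 (0.39 to 0.50, edgeR adjusted p from 0.0896 to 0.186). JUN kept it in 9 of 14, and lost it without ATRA replicate 1 or 3 or combined replicate 2 or 3 (1.68 to 2.14, adjusted p from 0.0620 to 0.0839). CNPY3 kept it in 8 of 15, and lost it without any 1 of the 6 libraries (-0.35 to -0.25, adjusted p from 0.0503 to 0.226).

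Genes with the most similar pattern over the 12 libraries were sought for the 4 members with a mean of at least 2 CPM among the 13286 genes at that level, by the Pearson correlation of log2 CPM. TLR1 was closest to IREB2 (0.906) and MTX3 (0.904), and TLR2 to USP3 (0.955) and ENSG00000286248 (0.955). TLR6 was closest to ENSG00000239791 (0.934) and XACT (0.930), and MYD88 to KLHL26 (0.949) and LAMTOR1 (0.939). These values describe 12 libraries that share their groups and scaling, and the highest of 13286 correlations is high in any such search. XACT, a long noncoding RNA gene of chromosome X, changed by -1.66 on the log2 scale with ATRA alone and USP3 by -0.32.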

How the data were processed

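The authors deposited raw counts, 1 whole number for each gene in each library. GRCh38 and the tools STAR, HTSeq and FastQC are named by the submitters' processing notes; versions, annotation release and strand setting are not given in the sources used here. Identifiers were matched to a table of gene names (61369 of 61487) or GENCODE 29 (101), and 17 stayed unnamed; 23 empty columns were ignored. Lengths and positions come from GENCODE 29, promoter windows from RefSeq (GRCh38.p14; 7 of 10 members).

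Counts were fitted with edgeR 4.0.16 (R 4.3.3): filterByExpr, TMM, 1 quasi-likelihood model of the 4 group means over 12 libraries, Benjamini-Hochberg adjustment over 16104 genes, threshold 0.05; the biological coefficient of variation was 9.54%. CPM are counts per 1000000 of TMM-scaled library size. An SE is the size of the log2 change divided by the square root of the edgeR F statistic. The 95% intervals of log2 changes are that SE times a t quantile. The edgeR test gives neither directly, so an interval need not match its p. Count ratios have exact conditional 95% intervals, which cover counting error only. DESeq2 1.42.0, other scalings, filters, depth, a replicate block, a mitochondrial ribosomal RNA term and left-out libraries were alternatives. On simulated counts for ATRA against untreated (15817 genes tested), 2-fold changes were recovered for 87.9% of changed genes at 2 CPM or more and 14.7% below that. These shares were 78.8% and 0% in combined against DOX and 90.9% and 2.94% in DOX against untreated. They were 81.8% and 20.6% in combined against ATRA and 72.7% and 2.94% for the interaction. The level used there is the mean over the 12 libraries. A missing call of LY96, or of TLR4 or TLR5 in DOX against untreated and the interaction, therefore says little about changes of that size. In combined against ATRA, TLR4 and TLR5 averaged more than 2 CPM in both groups. Their 95% intervals there, given above, do not include a 2-fold change.

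Members, lists and tests were chosen with earlier results of these data known. Named were all members, NRIP1, up to 4 genes per list with the smallest adjusted p in ATRA against untreated, up to 4 over all lists in each other contrast, and the 2 genes most like each member. Marker genes and genes named by a small count were added to these. No list was tested as a set. Figures were drawn with matplotlib 3.10.9.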

Additional observations from a re-analysis of the deposited data

How the results depend on the processing

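Members with fewer than 2 CPM on average (TLR4, TLR5, TLR7, TLR8, CD14 and LY96) rest on few counts, and DOX replicate 3, with 2685984 counts, held 0 to 2 counts of each of them. In combined against DOX, TLR2, TLR4 and TLR5 were called in every alternative run that tested them (16, 15 and 16), and in ATRA against untreated TLR4 and TLR5 were (15 and 16). TLR4 and TLR5 passed the filter on low counts through libraries with ATRA alone, so their calls across runs are a description. Of 1316 recomputed log2 changes of named genes, 1204 kept direction and side of the threshold, 70 lost the call, 7 gained it and 35 changed sign. For 3 members under the filter no value was recomputed except without a filter, where the lowest adjusted p was 0.170, for TLR7 in DOX against untreated.

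The number of called members in ATRA against untreated, 6, was 1 at equal depth (TLR5), where fewer counts were available. TLR4 and LY96 did not pass the filter at equal depth and were not tested there. With untreated replicate 3 and DOX replicate 3 both left out the number was 3 (TLR2, TLR4 and TLR5). Leaving out 1 library at a time gave 3 to 6, the lowest without untreated replicate 3, and 0 to 1 for the interaction, the highest without DOX replicate 1 (LY96). Over all genes the leave-one-out counts were 3455 to 4006 against 4652 for ATRA against untreated, 2195 to 3898 against 3054 for combined against DOX, 659 to 4326 against 2446 for DOX against untreated, 264 to 907 against 713 for combined against ATRA and 10 to 747 against 43 for the interaction. The other alternatives gave 2685 to 5616, 1846 to 3425, 77 to 2590, 376 to 1004 and 9 to 189 in the same order.

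Signs changed for differences that were not called, and the cause was not tested. At equal depth TLR6 was at 0.050 in combined against DOX; TLR5, TLR6 and MYD88 were at 0.057, 0.072 and 0.045 in combined against ATRA; and TLR1 and TLR5 were at 0.036 and 0.055 for the interaction. With the mitochondrial ribosomal RNA term SARM1 was at 0.11 in ATRA against untreated; TLR4, TLR6, LY96 and MYD88 were at -0.68, 0.034, -0.060 and -0.012 in DOX against untreated; and TLR4 and TLR6 were at -0.16 and 0.13 in combined against ATRA. That term also moved the number of called genes in DOX against untreated from 2446 to 77. The share of higher among them went from 53.2% to 85.7%. With untreated replicate 3 and DOX replicate 3 both left out TLR4 was at -0.14 in DOX against untreated and TLR1 at 0.13 for the interaction. Leave-one-out values ran from -0.91 to 0.36 for LY96 in combined against DOX, from -0.27 to 0.33 for TLR4 in DOX against untreated, from -0.51 to 0.016 for TLR2, -0.12 to 0.49 for TLR4, -0.40 to 0.12 for TLR6 and -0.072 to 0.044 for MYD88 in combined against ATRA, and from -0.41 to 0.13 for TLR1 and -0.20 to 0.44 for TLR4 in the interaction.

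With the replicate number as a block, called members were 6, 3, 0, 0 and 0 and called genes 4677, 3052, 2349, 729 and 54 in the order above, and the interaction of TLR4 was at -0.0097. The numbers were not taken as a pairing: deviations from the group means of same-numbered libraries correlated at -0.244 to 0.267 over 18 pairs, 4 of them over 0.1, and 3 of 12 libraries correlated best with a library of their own number.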
